A study of Arabidopsis thaliana with 9 samples.

Results

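The 57 genes described here are copies of the cytosolic large ribosomal subunit (60S) proteins RPL3 to RPL23a in Arabidopsis thaliana. They encode 21 proteins with 2 to 4 copies each, and they were taken out of the 33278 loci in the table by a list of locus identifiers. The series has 9 samples, of which the 4 RNA-seq libraries of 6-day seedlings were used. The wild type was Columbia-0 (2 libraries), and the other 2 libraries are labelled as the hd2b hd2c double mutant. All 4 came from plants grown on soil at one temperature under continuous light, and no other treatment is named. The labels do not give the alleles, the insertion sites or whether a genotype's 2 libraries derive from different plantings. The p-values therefore reflect the spread among these samples alone, and that spread may be technical. HD2B and HD2C are plant-specific histone deacetylases found largely in the nucleolus, where ribosomal subunits are assembled.

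The large subunit joins amino acids into protein and holds the tunnel through which the new chain leaves. Each of the proteins described here sits once in a ribosome, so the cell needs them in matched amounts. Plants keep several gene copies for most ribosomal proteins. Transcripts of these genes are abundant in growing and dividing tissue, and mutants in single copies of Arabidopsis often have narrow, pointed leaves or fail as embryos. The comparison here asks whether the transcripts of these proteins differed between the genotypes, copy by copy and summed by protein.

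The libraries had like numbers of detected loci. Between 19537 and 19767 loci reached 1 FPKM (fragments mapped, scaled to transcript length and library size) in each library, and depth is unknown because the table holds no counts. HD2B was 6.76-fold lower in labelled mutants, at 24.3 ± 0.0503 against 164 ± 37.4 FPKM (SD, n = 2 each), while HD2C stood at 56.1 and 63.9 against 74.7 and 55.8 FPKM. Because HD2C was not lower, the second group is called labelled mutants, and directions rest on the labels and on HD2B. FPKM over a whole locus does not show whether a full HD2C transcript was made. The column of labelled mutant library 2 summed to 1105981 FPKM, against 956002 to 992451 in the other 3.

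Transcripts of the large-subunit proteins were more abundant in the labelled mutants as a set, with ratios of group means between 1.15 and 1.66 for 54 of the 55 copies tested. The 57 copies summed to 17445 and 18442 FPKM in wild type, against 22834 and 27359 FPKM in labelled mutants. Both labelled mutant libraries lay above both wild-type libraries, and the group means differed 1.40-fold. As a share of all FPKM in a library the copies made up 1.76% and 1.86% in wild type, against 2.39% and 2.47% in labelled mutants, a 1.34-fold difference in which the libraries of a genotype lay closer together. An exact permutation test of 2 against 2 libraries cannot give a two-sided p below 0.333, so neither total was tested. In a bulk sample, more cells of a type and more RNA per cell cannot be told apart.

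Of the 57 copies, 55 reached 1 FPKM in 2 or more libraries and entered the test, and 2 did not. Of these 2, RPL8B (AT3G51190) had 0 FPKM in either wild-type library, against 0.0852 and 0.0777 FPKM in labelled mutants. An exact 0 in such a table can be a failed estimate, so these values do not show that the gene is silent in wild type.

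Among the 55 tested copies, 54 had a log2 change above 0, where 50.7% of the 19917 tested loci did. The copies were read in the same 4 libraries, so they are not independent replicates of a genotype. The median log2 change was 0.49 (quartiles 0.40 and 0.55), against a median of 0.00407 over all tested loci. Groups did not overlap in 53 copies: 52 were higher in both labelled mutant libraries, where 24.2% of all tested loci were, and 1 was lower in both, where 25.1% of all tested loci were. No copy passed an adjusted p of 0.05 in the higher direction (limma with Benjamini-Hochberg adjustment over all tested loci; 0.608% of all tested loci passed), and 1 copy, RPL3B, passed in the lower direction (0.552% of all tested loci passed). At an unadjusted p under 0.05 in the same fit there were 43 higher copies (9.22% of all tested loci) and 1 lower copy (7.95%).

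**Figure D1:**
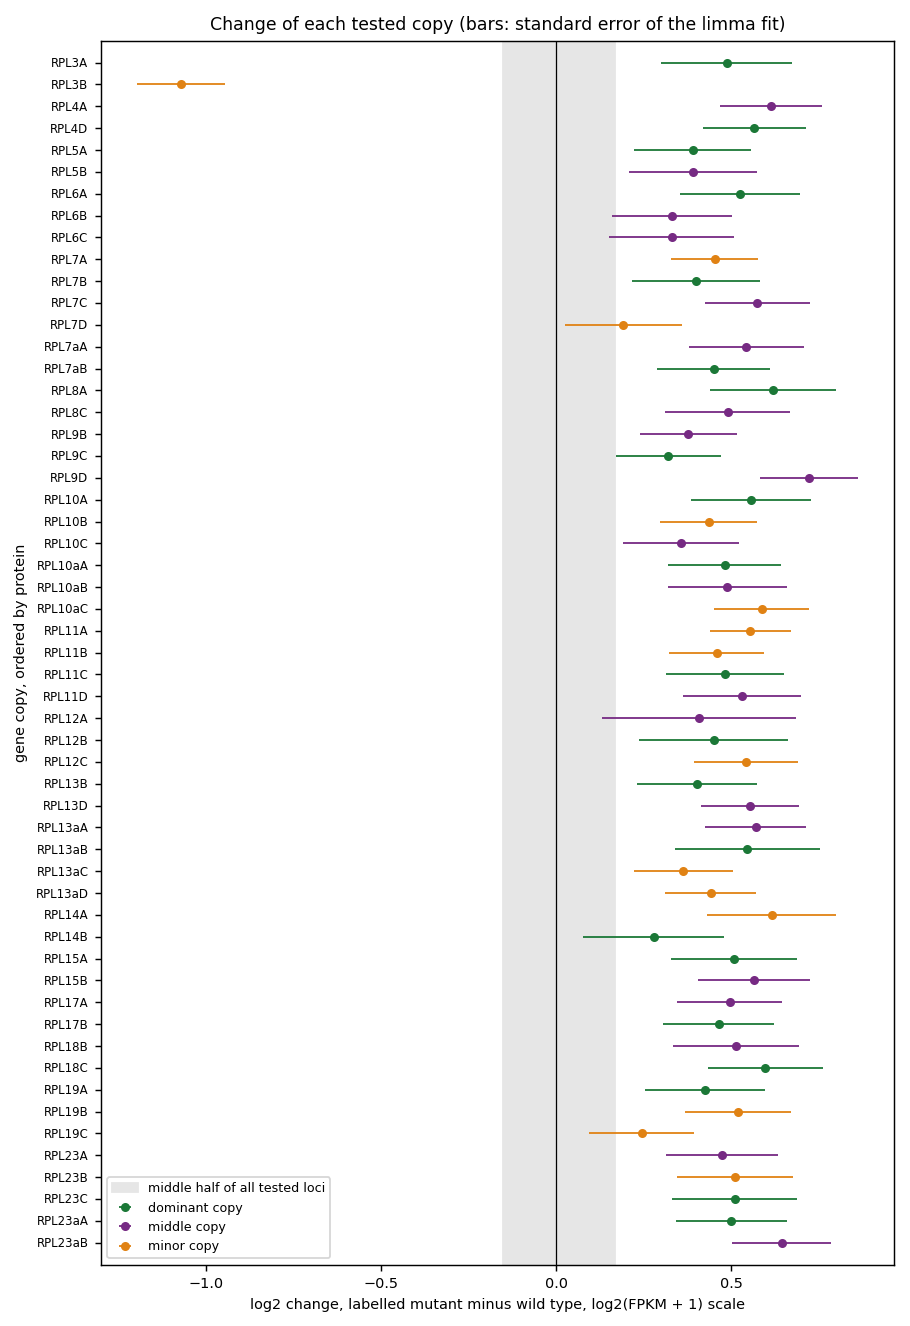
Log2 change (labelled mutant minus wild type, log2(FPKM + 1) scale) of each of the 55 tested copies, with bars for the standard error and colours for the copy's place within its protein. The grey band runs from the lower to the upper quartile of all tested loci. Apart from RPL3B at −1.07, the points lie between 0.19 and 0.72.

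The size of the shift depended on which libraries were set against each other. The median log2 difference over the 55 copies was 0.29 between labelled mutant library 1 and wild-type library 2 and 0.63 between labelled mutant library 2 and wild-type library 1. Libraries of the same genotype also differed: the median was 0.12 between the wild-type libraries and 0.25 between the labelled mutant libraries. Of the 55 copies, 42 were higher in wild-type library 2 than in wild-type library 1, where 64.2% of all tested loci were. In labelled mutant library 2, 49 were higher than in labelled mutant library 1, where 58.6% of all tested loci were. Labelled mutant library 2 held the highest value for 48 of the 55 copies and wild-type library 1 the lowest for 41. The like counts over all tested loci were not made. With quantile normalization the median was 0.31, and without labelled mutant library 1 the count of copies that passed in the higher direction went from 0 to 23, where 1.36% of all tested loci passed in that direction. Without labelled mutant library 2 that count was 1 (0.864% of all tested loci). With columns scaled to equal sums it was 23 (1.61%), and 19 (1.43%) when rRNA loci and AT2G01021 were removed before that scaling.

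**Figure D2:**
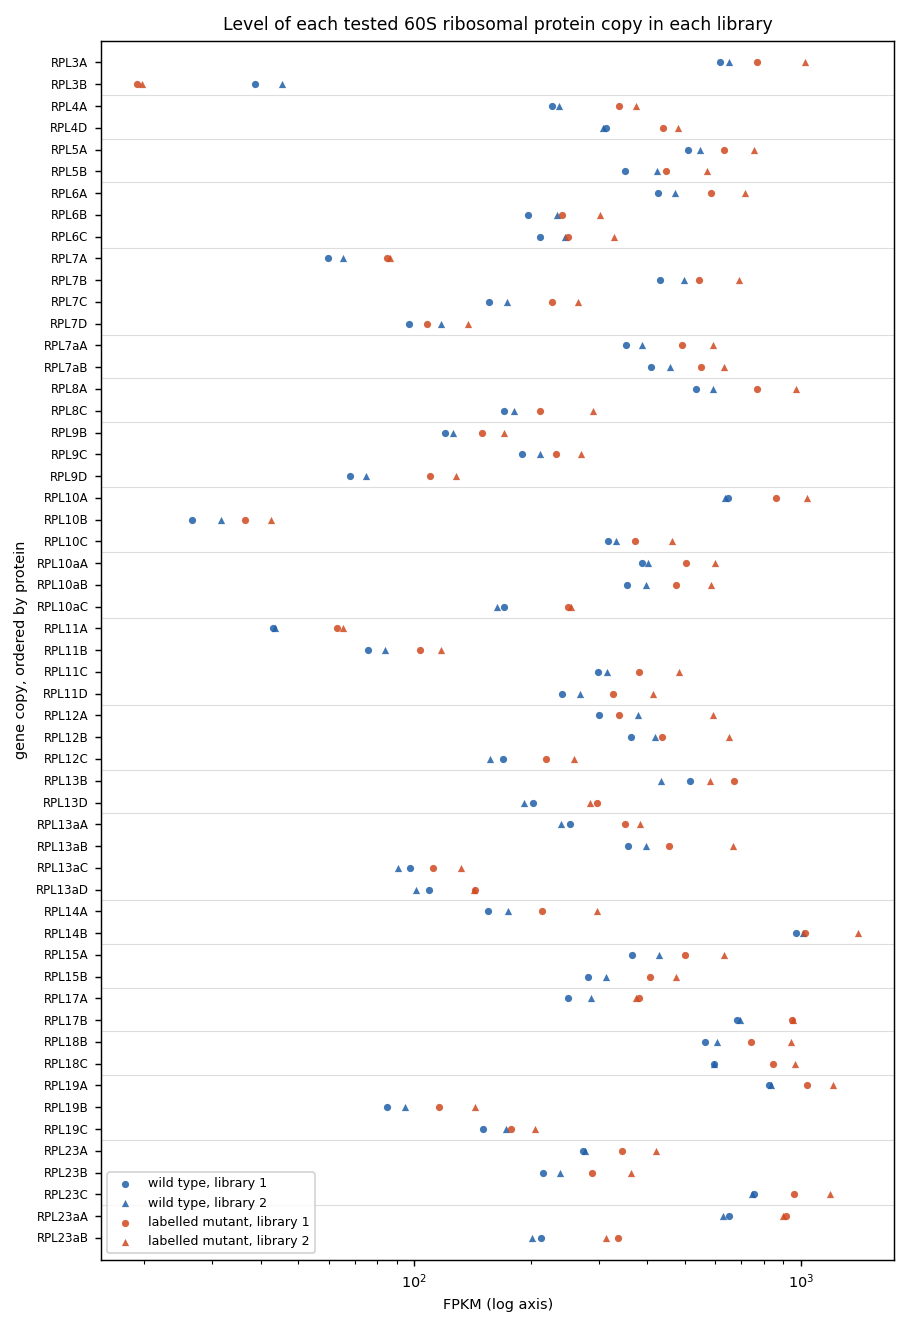
FPKM (log axis) of each tested copy in each of the 4 libraries, with copies of a protein between grey lines. Orange points (labelled mutants) lie to the right of blue points (wild type) for 52 copies, to the left for RPL3B, and overlap for RPL7D and RPL12A.

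RPL3, a protein that reaches towards the site of peptide bond formation, was the exception at the level of copies. RPL3A (AT1G43170), the dominant copy (the copy with the highest mean FPKM of its protein), stood at 616 and 651 FPKM in wild type, against 770 and 1024 FPKM in labelled mutants. RPL3B (AT1G61580), the minor copy, stood at 38.8 and 45.6 FPKM in wild type, against 19.2 and 19.8 FPKM in labelled mutants. Both labelled mutant libraries were thus at about the same low level of RPL3B, below both wild-type libraries. RPL3B fell 2.17-fold, from 42.2 ± 4.80 to 19.5 ± 0.420 FPKM (SD, n = 2 each), with a log2 change of −1.07 (SE 0.12, limma adjusted p = 0.00938). RPL3A was 1.42-fold higher without passing (log2 0.49, SE 0.19, limma adjusted p = 0.249). The RPL3B call ended with no filter on low values (adjusted p = 0.234), and over the other alternatives its adjusted p ran from 2.11e-04 to 0.0338.

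The minor copy contributes little to the protein's total. RPL3B made up 5.92% and 6.54% of RPL3 transcripts in wild type, against 2.43% and 1.90% in labelled mutants. Summed over both copies, RPL3 went from 655 and 696 FPKM in wild type to 789 and 1043 FPKM in labelled mutants, 1.36-fold higher without passing (log2 0.43, SE 0.19, limma adjusted p = 0.3001). At the level of the protein the fall of RPL3B was therefore outweighed by RPL3A. RPL3A is 1 of 4 copies that the reference table annotates as embryo defective, with RPL8A, RPL19A and RPL23C. All 4 were the dominant copies of their proteins, as were 21 of the 57 copies. The annotation was read from gene names, so a copy without it is not shown to be dispensable.

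Summed by protein, all 21 lay above 0 (50.6% of the rows of that table did), with log2 changes from 0.33 (RPL14) to 0.59 (RPL8) and a median of 0.49. The groups did not overlap for any of the 21 proteins, where 24.1% of the rows of that table were higher without overlap and 25.2% lower. None of the 21 passed an adjusted p of 0.05 in limma (0.609% of the rows of that table passed in the higher direction and 0.548% in the lower), while 16 were higher at an unadjusted p under 0.05 (9.1% of those rows were) and 0 lower (7.96% were). With columns scaled to equal sums 11 proteins passed, where 1.54% of all rows were called higher. When rRNA loci and AT2G01021 were removed before that scaling, 6 passed (1.37% of rows).

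**Figure D3:**
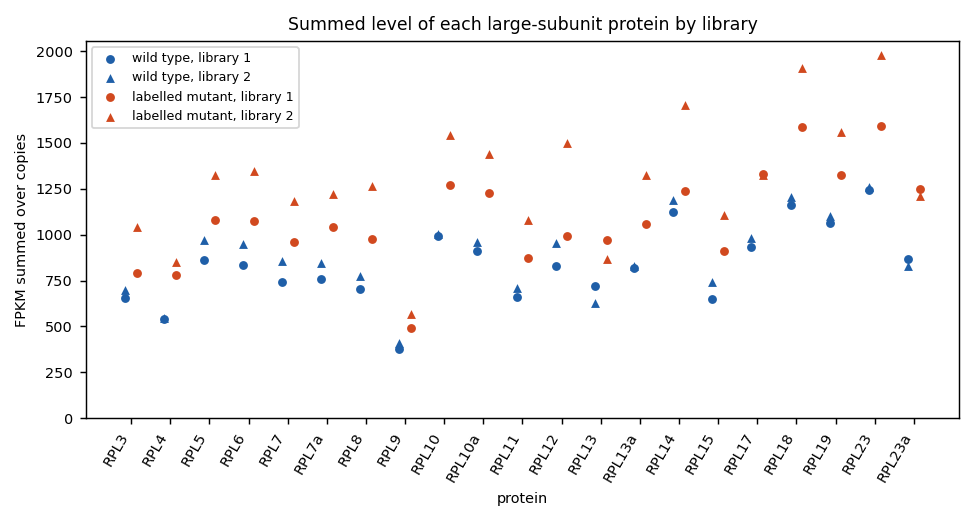
FPKM summed over the copies of each of the 21 proteins in each library. For every protein both labelled mutant points lie above both wild-type points; RPL9 is lowest and RPL23 highest in all 4 libraries.

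The least and the most abundant protein were the same in every library. RPL9 had the lowest sum in each library, with 378 and 412 FPKM in wild type and 493 and 568 FPKM in the labelled mutants. RPL23 had the highest, with 1244 and 1260 FPKM in wild type and 1591 and 1977 FPKM in the labelled mutants. The highest sum was 3.29 and 3.06 times the lowest in wild type, against 3.23 and 3.48 times in labelled mutants. The coefficient of variation across the 21 proteins was 25.4% and 24.7% in wild type, against 24.3% and 26.0% in labelled mutants, so the spread between proteins was about the same in every library.

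Among proteins near the catalytic centre and the exit tunnel, summed log2 changes lay on both sides of the median of the 21 proteins. RPL8, which lies close to the catalytic centre, went from 705 and 773 FPKM in wild type to 979 and 1263 FPKM in labelled mutants, 1.52-fold higher (log2 0.59, SE 0.19, limma adjusted p = 0.181). Its dominant copy RPL8A (AT2G18020) stood at 534 and 592 against 768 and 973 FPKM and had the third largest log2 change of the 55 copies (log2 0.62, SE 0.18, limma adjusted p = 0.156). RPL8C (AT4G36130) stood at 171 and 181 against 211 and 290 FPKM and gave 21.6% to 24.2% of RPL8 transcripts in each library.

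RPL4, which lines the tunnel, differed 1.51-fold, from 540 and 544 FPKM in wild type to 778 and 854 FPKM in labelled mutants (log2 0.59, SE 0.16, limma adjusted p = 0.136). Its copies had like changes. RPL4A (AT3G09630) stood at 227 and 237 against 338 and 374 FPKM (log2 0.61, SE 0.15, limma adjusted p = 0.109). RPL4D (AT5G02870) stood at 314 and 307 against 440 and 480 FPKM and held 56.2% to 58.0% of the total throughout.

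RPL17, also a tunnel protein, summed to 934 and 981 FPKM in wild type, against 1333 and 1326 FPKM in labelled mutants (log2 0.47, SE 0.16, limma adjusted p = 0.213). Its dominant copy RPL17B (AT1G67430) was at 684 and 694 against 951 and 952 FPKM, with no overlap between genotypes. RPL23a sits at the mouth of the tunnel, where the new chain emerges. It summed to 865 and 829 FPKM in wild type, against 1249 and 1211 FPKM in labelled mutants, and it was higher in library 1 than in library 2 in both genotypes. RPL23aA (AT2G39460) held 73.0% to 75.7% of the total. RPL23aB (AT3G55280) stood at 213 and 202 against 337 and 313 FPKM, the second largest log2 change (log2 0.64, SE 0.14, limma adjusted p = 0.0907). It passed without labelled mutant library 2 and with columns rescaled or scaled to equal sums, where its adjusted p reached 0.0162.

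RPL10 joins the subunit in the last steps of its assembly. Its dominant copy RPL10A (AT1G14320, named SAC52 in the reference table) stood at 647 and 638 FPKM in wild type, against 860 and 1037 FPKM in labelled mutants. RPL10C (AT1G66580, annotated as the senescence-associated gene SAG24) stood at 317 and 332 against 372 and 464 FPKM. RPL10B (AT1G26910) stood at 26.5 and 31.5 against 36.5 and 42.7 FPKM, no more than 3.15% of RPL10 in any library. The share of RPL10A was 65.3% and 63.7% in wild type, against 67.8% and 67.2% in labelled mutants.

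RPL5 and RPL11 bind the 5S ribosomal RNA and enter the subunit with it. RPL5A (AT3G25520) stood at 509 and 547 FPKM in wild type, against 633 and 755 FPKM in labelled mutants, and RPL5B (AT5G39740) at 351 and 424 against 449 and 570 FPKM. Mutants in these copies are known as oligocellula, for leaves with fewer cells, and RPL5A also as piggyback. Both copies had a log2 change of 0.39, and RPL5A kept 56.3% to 59.2% of the total in all 4 libraries.

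RPL11 has 4 copies over a wide range of levels. RPL11C (AT4G18730) stood at 298 and 315 against 381 and 484 FPKM and RPL11D (AT5G45775) at 241 and 268 against 326 and 414 FPKM. The minor copies were RPL11B (AT3G58700), at 76.0 and 83.8 against 103 and 117 FPKM, and RPL11A (AT2G42740), at 43.1 and 43.7 against 63.2 and 65.2 FPKM. Their log2 changes lay between 0.46 and 0.56, so copies that differed several-fold in level differed little in change. How reads shared between copies were counted is not given, which limits such comparisons.

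RPL10a is the protein of the movable L1 stalk, on the side where spent tRNA leaves, while RPL12 and RPL9 lie near the base of the acidic stalk, where translation factors bind. RPL10aA (AT1G08360) stood at 388 and 401 against 505 and 601 FPKM. RPL10aB (AT2G27530, PIGGYBACK1) was nearly as high, at 354 and 397 against 474 and 585 FPKM, and RPL10aC (AT5G22440) stood at 171 and 164 against 249 and 255 FPKM. All 3 copies were higher in both labelled mutant libraries, where 24.2% of all tested loci were, with log2 changes of 0.48 to 0.59.

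Of the 21 sums, that of RPL12 varied most between libraries of the same genotype relative to its mean. It summed to 832 and 957 FPKM in wild type, against 995 and 1502 FPKM in labelled mutants, so the labelled mutants differed from each other by more than labelled mutant library 1 differed from wild type. RPL12A (AT2G37190) overlapped between groups, at 299 and 379 against 338 and 592 FPKM. RPL12B (AT3G53430) stood at 363 and 420 against 437 and 652 FPKM, and RPL12C (AT5G60670) at 169 and 157 against 219 and 259 FPKM.

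RPL9 held the copy with the largest log2 change of the 55. RPL9D (AT4G10450) stood at 68.0 and 75.03 FPKM in wild type, against 110 and 128 FPKM in labelled mutants. It was 1.66-fold higher without passing (log2 0.72, SE 0.14, limma adjusted p = 0.0594). Over the alternatives its adjusted p ran from 0.00460 to 0.343, and it passed in 6 of the 15. RPL9C (AT1G33140, PIGGYBACK2), the dominant copy, stood at 190 and 211 against 233 and 269 FPKM and was among the 5 smallest log2 changes (log2 0.32, SE 0.15, limma adjusted p = 0.326). RPL9B (AT1G33120), which has 3 loci between it and RPL9C in the reference order, stood at 120 and 126 against 150 and 171 FPKM.

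RPL19 and RPL23 line the face that meets the small subunit. RPL19A (AT1G02780) stood at 827 and 838 against 1034 and 1210 FPKM and RPL19B (AT3G16780) at 84.99 and 94.3 against 116 and 144 FPKM. RPL19C (AT4G02230) stood at 151 and 172 against 178 and 206 FPKM and had the third smallest log2 change (log2 0.24, SE 0.15, limma adjusted p = 0.453). Its labelled mutant library 1 was barely above its wild-type library 2. RPL23C (AT3G04400) stood at 757 and 745 against 960 and 1192 FPKM, RPL23A (AT1G04480) at 272 and 276 against 343 and 422 FPKM, and RPL23B (AT2G33370) at 215 and 239 against 287 and 363 FPKM. The 3 RPL23 copies had log2 changes within 0.04 of each other.

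The remaining 8 proteins (RPL6, RPL7, RPL7a, RPL13, RPL13a, RPL14, RPL15 and RPL18) are rRNA-binding proteins of the body of the subunit. RPL14 had the smallest summed difference of the 21: 1124 and 1187 FPKM in wild type against 1239 and 1705 FPKM in the labelled mutants (1.27-fold, log2 0.33, SE 0.20, limma adjusted p = 0.452). Its dominant copy RPL14B (AT4G27090), the most abundant transcript of the 57, stood at 969 and 1012 against 1025 and 1407 FPKM, so labelled mutant library 1 was hardly above wild type (log2 0.28, SE 0.20, limma adjusted p = 0.526). RPL14A (AT2G20450), the minor copy, stood at 155 and 174 against 214 and 298 FPKM and was among the 5 largest (log2 0.62, SE 0.18, limma adjusted p = 0.163).

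RPL7 also had copies that differed in change. RPL7D (AT3G13580) overlapped between groups, at 96.9 and 117 against 108 and 137 FPKM, and had the smallest log2 change after RPL3B (log2 0.19, SE 0.17, limma adjusted p = 0.608). RPL7C (AT2G44120) stood at 156 and 173 against 227 and 265 FPKM and RPL7A (AT1G80750) at 59.8 and 65.2 against 85.2 and 86.5 FPKM. The dominant RPL7B (AT2G01250) stood at 432 and 500 against 543 and 692 FPKM. The log2 changes of the 4 copies spanned 0.38, the third widest span after RPL3 and RPL9.

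RPL6A (AT1G18540) stood at 428 and 472 against 585 and 716 FPKM. RPL6B (AT1G74060) and RPL6C (AT1G74050), which are next to each other in the reference order, were nearly equal in level and change: 196 and 233 against 241 and 302 FPKM, and 211 and 246 against 250 and 328 FPKM. In both, labelled mutant library 1 was close to wild-type library 2. RPL7aA (AT2G47610) stood at 352 and 388 against 492 and 591 FPKM and RPL7aB (AT3G62870) at 409 and 458 against 552 and 633 FPKM.

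RPL13 was higher in library 1 than in library 2 in both genotypes, against the pattern of most copies. RPL13B (AT3G49010, BBC1 in the reference table) stood at 515 and 434 against 672 and 582 FPKM, and RPL13D (AT5G23900) at 203 and 192 against 297 and 284 FPKM. Of the 4 RPL13a copies, RPL13aB (AT3G24830) was dominant at 358 and 398 against 455 and 669 FPKM and RPL13aA (AT3G07110) followed at 253 and 240 against 350 and 382 FPKM. RPL13aC (AT4G13170) stood at 97.4 and 90.8 against 111 and 132 FPKM and RPL13aD (AT5G48760) at 109 and 101 against 143 and 143 FPKM. In every library RPL13aB and RPL13aA stood above the 2 minor copies.

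RPL15A (AT4G16720) stood at 366 and 430 against 502 and 634 FPKM and RPL15B (AT4G17390) at 282 and 313 against 407 and 476 FPKM. RPL17A (AT1G27400) stood at 250 and 286 against 382 and 374 FPKM. RPL18 was the 1 protein whose leading copy was not the same in every library. RPL18B (AT3G05590) stood at 565 and 607 against 741 and 943 FPKM and RPL18C (AT5G27850) at 597 and 597 against 846 and 966 FPKM, so the copies gave near-equal amounts in every library and RPL18B led only in wild-type library 2.

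Within proteins, the mean share of a copy differed between genotypes by at most 4.32 percentage points. The dominant copy was the same in all 4 libraries for 20 of the 21 proteins. There were 21 dominant copies, 16 minor copies (a mean share under 20% of the protein) and 20 in between. Median log2 changes were 0.48 in the dominant copies, 0.50 in those in between and 0.46 in the 14 minor copies tested. The largest difference upward in share was 4.32 percentage points, for RPL9D, from 18.0% and 18.2% in wild type to 22.3% and 22.6% in the labelled mutants. The largest downward was 4.07 points, for RPL3B. Shares differed by more than 2 points in 12 of the 57 copies. The share was higher in both labelled mutant libraries for 11 copies, among them the untested RPL8B, and lower in both for 14. Shares within a protein depend on each other, and these counts have no counterpart over all loci. Shares were not tested. How reads common to near-identical copies were counted is not given, so the split between copies and the likeness of their changes are uncertain.

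**Figure D4:**
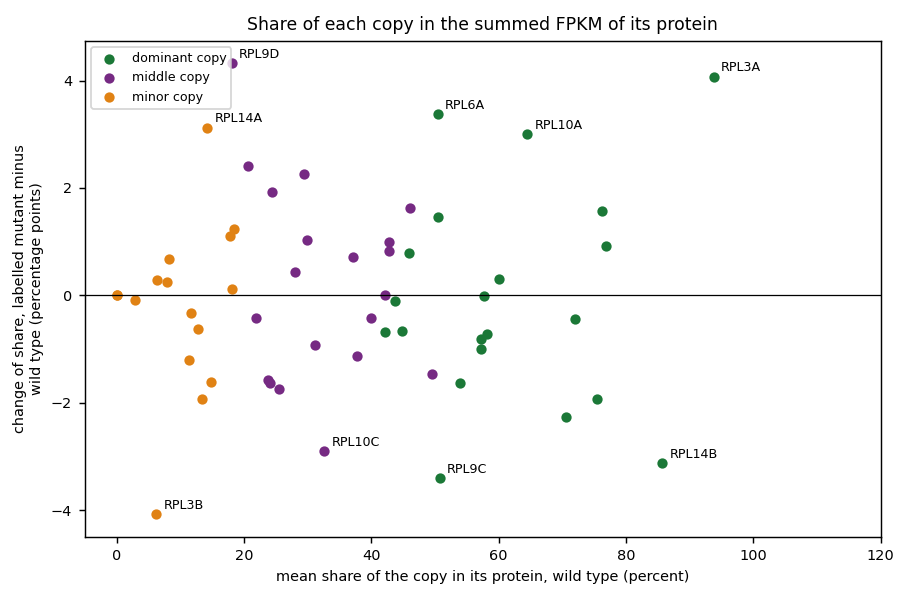
Change in the share of each copy in its protein's summed FPKM (labelled mutant minus wild type, percentage points) against its mean share in wild type (percent). Most points lie within 2 points of 0; RPL9D lies 4.32 points above 0, and RPL3A and RPL3B lie 4.07 points above and below it.

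Copies had like changes across a wide range of levels. The 55 tested copies averaged over the 4 libraries between the level of RPL3B, at the 75.4th percentile of tested loci, and that of RPL14B, and 44 of them were in the top 5% of tested loci by level. Over the 54 copies other than RPL3B, the log2 change had an SD of 0.104, against 0.345 over all tested loci. The second SD leaves no locus out and covers many loci of lower level, so the values are not like for like. Across these 54 copies, which share the same 4 libraries, Pearson's r between log10 mean FPKM and log2 change was 0.0415 and Spearman's rho 0.0123. Of the 55 copies, 48 were among the top 10% of tested loci by log2 change.

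**Figure D5:**
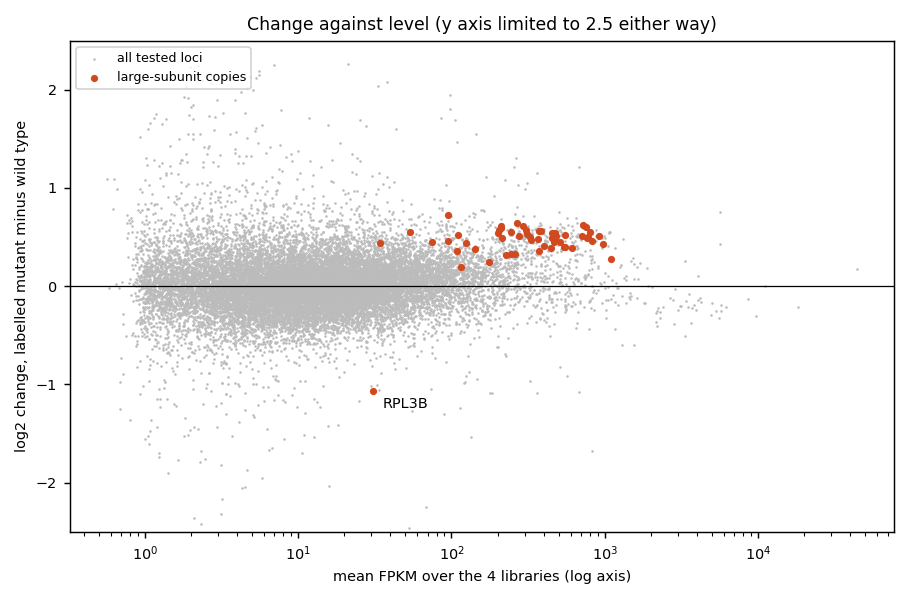
Log2 change (labelled mutant minus wild type) against mean FPKM (log axis) for all tested loci (grey) and the 55 tested copies (orange); 38 loci lie outside the limits of 2.5 either way. The copies form a band above 0 among the abundant transcripts, with RPL3B alone below 0.

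Other genes of the ribosome had like values in the same fit. Of 59 loci for the other large-subunit proteins, 55 were tested (median log2 change 0.49). All 55 lay above 0, where 50.7% of all tested loci did. None passed limma's adjusted p of 0.05, and 48 had an unadjusted p under 0.05 in the higher direction, where 9.22% of all tested loci did. Of 90 small-subunit loci, 85 were tested, all above 0 (median 0.52), and 3 passed in the higher direction, where 0.608% of all tested loci did. Of 19 genes for factors that assemble the large subunit, all tested, 18 lay above 0 (median 0.37). None of these passed limma's adjusted p of 0.05, and 12 had an unadjusted p under 0.05 in the higher direction, against the same 9.22%. The median of the assembly factors was 0.42 for the pair of libraries numbered 1 and 0.30 for the pair numbered 2, whereas that of the 55 large-subunit copies was 0.41 and 0.58.

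Markers of tissues and cell states in a seedling were read beside these values. Photosynthesis genes and root genes were both present in all 4 libraries, as in whole seedlings. The 12 cell division genes, markers of dividing cells, summed to 169 and 176 FPKM in wild type, against 212 and 235 in labelled mutants. Of these, 11 of 12 lay above 0 (median 0.29), where 50.7% of all tested loci did. The 12 seed storage genes summed to 6.34 and 29.1 FPKM in wild type, against 193 and 402 FPKM in labelled mutants. All 12 lay above 0 (median 3.49), with 6 listed at 0 in at least 1 library. Of the 12, 4 passed limma's adjusted p of 0.05 in the higher direction, where 0.608% of all tested loci did. The 9 root genes summed to 63.8 and 86.3 against 126 and 90.4 FPKM, and 9 of 9 lay above 0 (median 0.42). Of these 9, 6 were higher without overlap between groups, where 24.2% of all tested loci were. The root median was 0.82 for the pair of libraries numbered 1 and 0.045 for the pair numbered 2. The 10 photosynthesis genes summed to 80929 and 73250 against 56650 and 79203 FPKM, which overlapped between groups, and 1 of 10 lay above 0 (median −0.23). Their median was −0.57 for the pair numbered 1 and 0.11 for the pair numbered 2. No cell division, root or photosynthesis gene passed limma's adjusted p of 0.05. The part of these cell types and states in the higher level of the large-subunit copies was not tested.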

How the data were processed

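The deposited table gives FPKM per locus and library, computed by the authors, per the file headers. Per the labels' protocols, RNA was taken up in Trizol and turned into libraries with Illumina TruSeq reagents. TopHat, Bowtie2, bedtools and the build TAIR10 appear, per the submitters' processing notes, without their roles. Which program gave FPKM, whether strand was used and how shared reads were treated is not given in the sources used here. Columns were matched to libraries by number and genotype abbreviation (Col, and bc for hd2b hd2c).

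Loci that reached 1 FPKM in 2 or more libraries (19917 of 33278) were fitted with limma 3.58.1 in R 4.3.3 on log2(FPKM + 1), a scale that understates changes of low genes, with genotype as the only term, a mean-variance trend and robust moderation. Benjamini-Hochberg adjustment of the two-sided p-values ran over every tested locus. For proteins, the member rows were replaced by their sums and the whole table (19883 tested rows) refitted. Folds are ratios of group means. The fit was also run on simulated data, with noise independent between loci and planted log2 changes larger than the median of the copies. That run does not test shifts as small as theirs, or copies that vary together.

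Members and lists were chosen with earlier results of these data known. One of the 2 untested copies is not reported here, and the other copies are all named; full statistics go to RPL3A, RPL3B, and the 5 largest and 5 smallest log2 changes. Copy names follow common usage: the TAIR10.1 reference table names 9 of the 57 in that form, and all 57 loci matched it. A locus that this table names as a receptor kinase was left out of the list of other large-subunit genes. Planned promoter and protein sequence comparisons were not made, and no sequence is printed. Alternatives are given in the closing section.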

Additional observations from a re-analysis of the deposited data

How the results depend on the processing

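The direction of the set held throughout the 15 alternatives, which all reuse the same libraries. In each, 54 of 55 tested copies lay above 0 (55 of 57 with no filter on low values), and all 21 proteins did too. The changes of filter, the replicate block and limma without trend or robust moderation leave each log2 change as it was. Those settings could therefore not alter a direction. The count of copies that passed did not hold. Against 0 higher copies (0.608% of all tested loci), there were 1 with quantile normalization (0.482%) and 1 with median-ratio scaling (0.678%). Columns scaled to equal sums gave 23 (1.61%), and 19 (1.43%) when rRNA loci and AT2G01021 were removed before that scaling. With the replicate block 2 passed (1.31%). RPL3B stayed lower, at −1.19 to −0.94, and its call ended, leaving 0 lower copies, with no filter. The median of 0.49 became 0.31 with quantile normalization and 0.35 to 0.61 with single libraries left out, and that of the proteins 0.31 and 0.35 to 0.62. With the trend on gene span removed both medians were 0.41. The tested copies had a median span of 1698 bp, against 2356 bp over all tested loci. Against 0 higher proteins (0.609% of the rows tested with proteins summed), 11 passed with equal sums (1.54%). When rRNA loci and AT2G01021 were removed before that scaling, 6 passed (1.37%). Over all loci, 121 higher and 110 lower became 286 and 246 without rRNA loci, 320 and 274 with equal sums, 40 and 21 with no filter, 260 and 172 with the replicate block, 69 and 66 without trend or robust moderation, and 60 higher with the trend on gene span removed; leaving out single libraries gave 147 to 364 higher and 115 to 155 lower. The cause of these differences was not tested. The replicate numbers are shared by the genotypes but the labels do not pair them (deviations of same-numbered libraries correlated at 0.168 over all tested loci and 0.600 over the 55 copies), and with the block RPL9D and RPL11A passed. Leaving out a library leaves 1 in its group, assumed to vary like the other group. Depth is unknown, so counting error cannot be given.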
